A study of Mus musculus with 9 samples.

Results

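The Sox and T-box genes encode 2 families of developmental transcription factors, and 32 of them were followed here, 18 Sox and 14 T-box genes, out of 21887 protein-coding genes. They were chosen by name and family. The rule uses no measured value, but it was drawn up with earlier results of these data known. Sox proteins bind DNA through an HMG box and T-box proteins through the domain that names them. Most members specify tissues outside blood, such as neural tube, cartilage, heart and limb. Sox4, Tbx21 and Eomes are the members set apart here as blood-expressed: Sox4 acts in early lymphocyte development, Tbx21 (T-bet) directs the Th1 programme, and Tbx21 and Eomes together govern NK and effector T cells. H3K27me3, the mark measured, is laid down by Polycomb repressive complex 2 and is known to cover developmental regulators that a cell does not use.

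The measurement was ChIP-seq of H3K27me3 in Lin-Kit+ (LK) cells, a bone marrow fraction rich in haematopoietic stem and progenitor cells, enriched on magnetic beads from female mice that had received transplants. There were 4 groups of 2 libraries. RH MET and RH VEH came from mice with a Dnmt3afl-R878H/+ genotype, given metformin (MET) or vehicle (VEH) for 1 month, and WT MET and WT VEH came from Dnmt3a+/+ mice under the same regimens. R878H is a substitution in the DNA methyltransferase gene Dnmt3a, at the residue that corresponds to the human clonal haematopoiesis hotspot. Mice of all 4 groups were C57BL/6 and crossed to the B6. CgTg(Mx1-cre)1Cgn/J line, whose Cre is driven by the interferon-inducible Mx1 promoter, so the controls carried that cross too. The labels used here give no age, no metformin dose, no induction of Cre, no transplant host, and no word on pooling of animals. They call the libraries of a group replicates without naming separate animals, so p-values measure the spread between these libraries only, which may be technical.

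Each library was deposited as a track of marked intervals on mm10, one summit height per interval, in 11620 to 16879 intervals that covered 80.0 to 186 Mb. RH VEH 1 stood apart, with the fewest intervals, the least covered sequence and the lowest summit for 28 of 28 members and 92.2% of 5438 genes called in all 8 libraries. Read depth is unknown, and heights are the authors' own values. A gene was called where at least 1 bp of its span, from the first to the last base of its RefSeq gene record, lay in an interval. Percent covered is the share of the span inside intervals, domain width is the length of the widest interval that touches the span, and height is the highest summit among those intervals. The height percentile is the rank of that height among all intervals of the same library. The tracks hold no RNA, so the cell type could be checked only through the mark. Of the progenitor markers, Ptprc and Runx1 lay in no interval, Kit was called in 5 libraries and Cd34 in 6. T and NK markers were called in all 8 libraries for 2 of 5, stromal and endothelial markers for 4 of 6 and erythroid markers for 0 of 2. The B cell markers (0 of 3) and the housekeeping genes Actb and Gapdh lay in no interval in any library. As background, every library held a call for 24.8% of the 21887 genes, and no library did for 60.7%. Beside these shares, so few markers per list do not identify the cells. The cells are a mixture, and mark on all cells at a low level cannot be told apart from mark on some of them at a high level.

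The promoters below are shown because they span the outcomes described in the rest of the text. Sox4 (chr13:28953650-28953949, minus strand), Tbx21 (chr11:97115282-97115581, minus strand) and Eomes (chr9:118477939-118478238, plus strand) are the members set apart as blood-expressed. Tbr1 (chr2:61804203-61804502, plus strand), which specifies glutamatergic neurons of the cortex, was fully covered in every library. Sox15 (chr11:69654787-69655086, plus strand), which has roles in placenta and muscle, and Tbx6 (chr7:126781233-126781532, plus strand), which acts in paraxial mesoderm, lay in no interval in any library. Each sequence is RefSeq's for build GRCm38.p6, 5′ to 3′ on the gene's strand, from 250 bases before the start to 50 after it. Capitals mark the dinucleotide CG, which reads the same on both strands. An entry was found for 23 of the 32 members.
Sox4: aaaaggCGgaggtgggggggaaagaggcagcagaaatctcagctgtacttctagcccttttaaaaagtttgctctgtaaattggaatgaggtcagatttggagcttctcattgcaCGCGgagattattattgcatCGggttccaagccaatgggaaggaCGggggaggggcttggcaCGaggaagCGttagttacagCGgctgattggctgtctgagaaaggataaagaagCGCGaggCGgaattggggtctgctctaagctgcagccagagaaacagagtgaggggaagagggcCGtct
Tbx21: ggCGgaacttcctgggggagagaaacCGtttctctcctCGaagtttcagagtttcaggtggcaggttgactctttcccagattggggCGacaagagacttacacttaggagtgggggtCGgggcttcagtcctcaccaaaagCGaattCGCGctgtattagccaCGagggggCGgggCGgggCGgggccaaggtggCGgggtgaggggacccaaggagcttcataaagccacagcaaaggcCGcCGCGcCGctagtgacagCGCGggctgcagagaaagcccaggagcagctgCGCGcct
Eomes: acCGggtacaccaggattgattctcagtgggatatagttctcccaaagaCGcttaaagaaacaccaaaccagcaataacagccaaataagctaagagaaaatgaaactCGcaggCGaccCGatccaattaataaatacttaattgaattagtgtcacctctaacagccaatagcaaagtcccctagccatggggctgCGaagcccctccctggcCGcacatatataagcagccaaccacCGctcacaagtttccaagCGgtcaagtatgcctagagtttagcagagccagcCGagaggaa
Tbr1: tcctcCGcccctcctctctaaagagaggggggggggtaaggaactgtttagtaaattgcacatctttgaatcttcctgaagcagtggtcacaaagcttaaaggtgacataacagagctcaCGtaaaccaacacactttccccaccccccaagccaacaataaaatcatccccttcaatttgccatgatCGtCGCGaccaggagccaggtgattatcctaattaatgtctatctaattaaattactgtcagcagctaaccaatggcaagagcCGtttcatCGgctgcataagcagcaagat
Sox15: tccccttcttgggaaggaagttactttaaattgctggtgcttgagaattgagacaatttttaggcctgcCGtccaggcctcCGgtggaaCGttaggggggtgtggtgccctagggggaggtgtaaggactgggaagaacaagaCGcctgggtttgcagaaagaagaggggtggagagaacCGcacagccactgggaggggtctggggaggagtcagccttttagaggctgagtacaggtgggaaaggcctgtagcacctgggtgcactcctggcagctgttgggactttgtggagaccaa
Tbx6: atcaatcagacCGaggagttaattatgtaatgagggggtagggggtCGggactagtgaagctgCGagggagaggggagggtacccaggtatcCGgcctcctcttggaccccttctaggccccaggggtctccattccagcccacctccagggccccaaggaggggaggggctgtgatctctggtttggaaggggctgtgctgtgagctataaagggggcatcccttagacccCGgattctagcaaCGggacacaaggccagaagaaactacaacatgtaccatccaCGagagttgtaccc
CG occurs 12 times in the Sox4 promoter, 21 times in that of Tbx21, 10 times in that of Eomes and 7 times in that of Tbr1. It occurs 5 times in the Sox15 promoter and 7 times in that of Tbx6. Of all 21263 promoters of protein-coding genes in the table, 95.4% hold CG at least once. The ratio of observed CG to the number that the C and G content alone would give was 0.679 for Sox4, 0.754 for Tbx21, 0.607 for Eomes and 0.453 for Tbr1. That ratio was 0.239 for Sox15 and 0.286 for Tbx6.

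The mark lay on nearly the whole of both families. In all 8 libraries, 28 of the 32 members were called, 17 of 18 Sox genes and 11 of 14 T-box genes, whereas 24.8% of all protein-coding genes were called that often. The whole span lay in the mark in all 8 libraries for 14 members, against 2.7% of all protein-coding genes. These 14 were Sox1 and Sox2, which maintain neural progenitors, Sox14 and Sox21, also neural, and Sox8, Sox9 and Sox10, which act in testis, cartilage and neural crest. The others were the endothelial regulators Sox17 and Sox18, the pharyngeal arch factor Tbx1, the limb and heart regulators Tbx2 and Tbx3, and Tbr1 and Eomes. Another 14 members were called in every library and covered in part. Of the last 4 members, Sox15 and Tbx6 were called in no library, as were 60.7% of all protein-coding genes, and Tbx10 and Tbx19 were called in 1 library each.

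**Figure D1:**
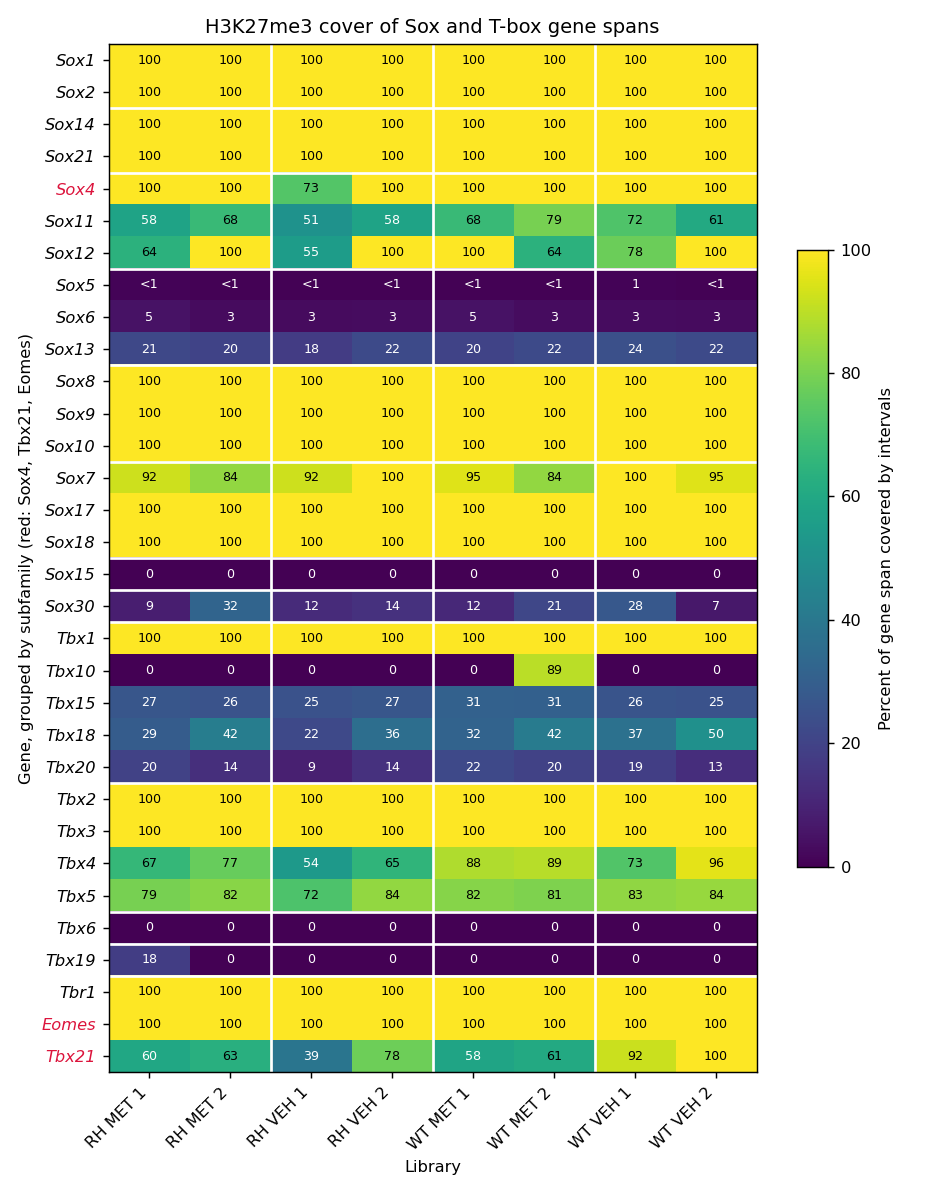
Percent of each gene span inside H3K27me3 intervals, with the 32 members in rows by subfamily and the 8 libraries in columns (2 per group); shade runs from 0 to 100 percent. In all 8 libraries 14 members sit at 100 percent, and Sox15 and Tbx6 sit at 0.

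The 3 members set apart as blood-expressed were called in all 8 libraries, as were 25 of the other 29 members. Those others are not all absent from blood cells, since they include Sox13, expressed in gamma-delta T cells. Sox4 (chr13:28948919-28953699, 4.78 kb) was covered to 100% and 100% in RH MET, 73.2% and 100% in RH VEH, 100% and 100% in WT MET, and 100% and 100% in WT VEH. RH VEH 1 was thus the one library in which Sox4 was not fully covered. Eomes (chr9:118478186-118486132, 7.95 kb) was at 100% in every library. Tbx21 (chr11:97098007-97115331, 17.3 kb) was covered to 59.6% and 63.1% in RH MET, 38.8% and 78.1% in RH VEH, 58.4% and 60.8% in WT MET, and 91.9% and 100% in WT VEH. The WT VEH libraries were the highest for Tbx21 and RH VEH 1 the lowest.

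Sox4 carried one of the narrowest domains among the members and Eomes a broad one. The Sox4 domain was 8.4 and 6.0 kb wide in RH MET, 3.6 and 8.4 kb in RH VEH, 9.6 and 8.0 kb in WT MET, and 7.6 and 7.4 kb in WT VEH. Only Sox5 had a narrower mean width, and the 5438 genes called in all 8 libraries had a median of 11 kb (quartiles 7.18 and 18.1 kb). The Eomes domain was 26.2 and 21.6 kb wide in RH MET, 20.2 and 29.2 kb in RH VEH, 30.6 and 29.2 kb in WT MET, and 28.8 and 24.6 kb in WT VEH. Its mean of 26.3 kb and the mean of 19.4 kb for Tbx21 lay above and below the median of 23.6 kb for the 25 other members called in all 8 libraries. By mean width, 10 members were wider than Eomes and 16 wider than Tbx21. With 3 genes against 25, and genes not being replicates of a condition, these are descriptions without a test.

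Summit heights placed Tbx21 and Eomes among the higher members and Sox4 among the lower. The Tbx21 summit was 93 and 77 in RH MET, 39 and 64 in RH VEH, 79 and 98 in WT MET, and 59 and 74 in WT VEH. That of Eomes was 70 and 71 in RH MET, 33 and 56 in RH VEH, 79 and 87 in WT MET, and 54 and 72 in WT VEH. The Sox4 summit was 47 and 48 in RH MET, 26 and 31 in RH VEH, 52 and 56 in WT MET, and 46 and 47 in WT VEH. In every library Sox4 was the lowest of the 3. As mean height percentiles these were 96.4 for Tbx21, 94.2 for Eomes and 85.3 for Sox4. The other members called in all 8 libraries had a median of 92.0 (range 66.5 to 99.8), and all genes called in all 8 libraries a median of 82.2.

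The domains of the 3 genes also differed in layout. At Tbx21, 7 libraries held 2 intervals, one over the start and one over the downstream end, with an unmarked gap between them. The gap was 7.0 and 6.4 kb in RH MET, 10.6 and 3.8 kb in RH VEH, 7.2 and 6.8 kb in WT MET, and 1.4 kb in WT VEH 1. WT VEH 2 had no gap but a single interval of 32 kb. In all 7 libraries with a gap the interval over the start had the higher summit, from 39 to 98, and the downstream one had 25 to 57. The Eomes start lay well inside its domain, which reached 3.79 to 13.0 kb upstream and 15.8 to 20.8 kb downstream. The Sox4 domain reached only 0.101 to 1.9 kb upstream of the start and 3.5 to 8.3 kb downstream, with its summit 1.15 to 1.68 kb into the gene. In 6 libraries, all but RH VEH 1 and WT VEH 1, a separate interval of 2.2 to 5.4 kb lay upstream of it, with summits of 11 to 23.

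Among all marked members, domains were wide. Mean domain width exceeded the median of the genes called in all 8 libraries (11 kb) for 23 of 28 members, and 9 of the 28 lay above the 90th percentile of those genes. The members' median was 22.1 kb. By the mean over libraries Sox8 was the widest at 65.6 kb, with 49.8 and 40.2 kb in RH MET, 25.8 and 73.2 kb in RH VEH, 74.8 and 190.2 kb in WT MET, and 37.2 and 33.8 kb in WT VEH. That rank rests on WT MET 2: without it the Sox8 mean was 47.8 kb, against 59.0 kb for Tbx3 and 55.7 kb for Tbx5. The Sox8 interval touched other protein-coding genes in 6 of 8 libraries, Lmf1 in all 6 and also Cacna1h, Tekt4 and Sstr5 in WT MET 2, so these widths were not those of Sox8 alone. Tbx3, which acts in limb and mammary development, measured 45.4 and 65.6 kb in RH MET, 49.4 and 63.2 kb in RH VEH, 58.2 and 51.6 kb in WT MET, and 54.0 and 77.0 kb in WT VEH. Tbx5, required for forelimb and heart, measured 59.8 and 46.0 kb in RH MET, 33.2 and 82.4 kb in RH VEH, 50 and 74.0 kb in WT MET, and 71.8 and 47.0 kb in WT VEH. At Tbx3 and Tbx5 the widths of all 4 groups overlapped, and at Sox8 both WT MET libraries were wider than the other 6.

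Mean widths were also set out by subfamily. All 3 SoxC genes, Sox4, Sox11 and Sox12, had mean widths from 7.38 to 8.3 kb, and Sox11 and Sox12 act in neurons and other developing tissues. The SoxF genes Sox7, Sox17 and Sox18, regulators of endothelium, had 10.5 to 15.5 kb. The SoxB1 genes Sox1 and Sox2 had 37.2 to 38.5 kb, and the SoxB2 genes Sox14 and Sox21 had 24.6 to 40.2 kb. The Tbx2 group, Tbx2, Tbx3, Tbx4 and Tbx5, had 29.4 to 58.0 kb. SoxE ranged from 19.2 to 65.6 kb and SoxD from 5.92 to 20.7 kb.

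Height percentiles ranked Tbx2 (99.8), Tbr1 (98.7) and Sox21 (98.6) highest. The Tbx2 summit reached 138 and 103 in RH MET, 61 and 82 in RH VEH, 136 and 143 in WT MET, and 91 and 111 in WT VEH. In every library the Tbx2 interval also touched the protein-coding gene Bcas3, so it was not that of Tbx2 alone. The Tbr1 summit was 98 and 86 in RH MET, 48 and 69 in RH VEH, 99 and 115 in WT MET, and 75 and 98 in WT VEH. Sox21 had 109 and 79 in RH MET, 52 and 70 in RH VEH, 103 and 101 in WT MET, and 80 and 90 in WT VEH. At the other end Sox12 averaged the 66.5th percentile, with 31 and 31 in RH MET, 12 and 15 in RH VEH, 29 and 33 in WT MET, and 18 and 26 in WT VEH. Among the marked members, 24 of 28 exceeded the gene median of 82.2. For each of these members RH VEH 1 had the lowest summit of the 8 libraries.

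**Figure D2:**
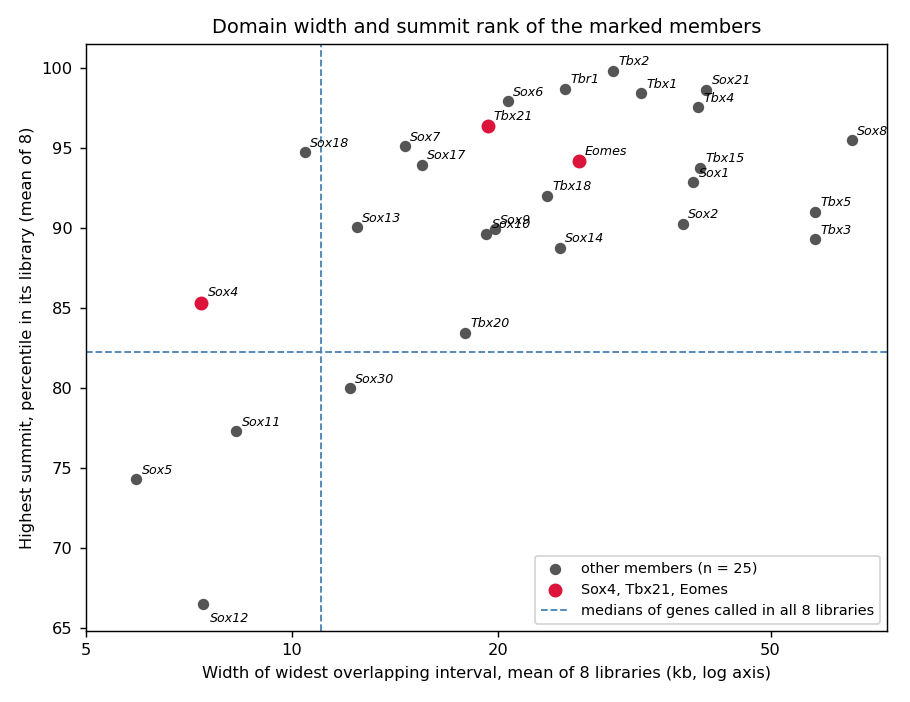
Mean domain width (kb, log axis) against mean height percentile over 8 libraries for each member, with Sox4, Tbx21 and Eomes marked apart from the rest and the medians of 5438 genes called in all 8 libraries as lines. Of the 28 members called in all 8 libraries, 23 lie beyond the width median of 11 kb and 24 above the percentile median of 82.2. Width and height of a member can come from different intervals, as at Tbx21.

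Percent covered depended on the length of the gene as well as on the domain. Across the 28 members Spearman's rho between mean cover and span length was -0.749, and across the 5438 genes it was -0.820; between width and length it was -0.00438 for the members. These are correlations across genes, which are not independent and share the same libraries. Median span was 8.89 kb for the 32 members and 30.5 kb for genes called in all 8 libraries, and median mean cover was 98.3% for the 28 members called that often (87.8% for all 32) and 31.5% for those genes. The high cover of the members therefore stood beside shorter spans.

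Of the 28 members called in all 8 libraries, the 7 with a mean cover under 50% were longer genes marked at one end. Sox5 and Sox6, which act together in cartilage, span 954 and 570 kb. Sox5 was covered to 0.848% and 0.596% in RH MET, 0.575% and 0.743% in RH VEH, 0.596% and 0.659% in WT MET, and 1.06% and 0.554% in WT VEH. Sox6 was covered to between 3.05% and 4.84%. Sox13, expressed in gamma-delta T cells, was covered to 17.7% to 24.3%. Sox30, a spermatid factor, had 8.54% and 32.2% in RH MET, 12.2% and 14.2% in RH VEH, 11.6% and 21.4% in WT MET, and 27.6% and 6.50% in WT VEH. Its groups overlapped fully. In all 8 libraries an interval lay over one end of the span of each of the 7: the end at the strand's start for Sox5, Sox6, Sox13, Sox30, Tbx18 and Tbx20, and the low-coordinate end for Tbx15, whose strand the table used here does not give.

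Sox5 held a second interval inside the gene in every library. The interval over its end was 4.6 to 7.4 kb wide, with summits of 15 to 42. The inner one, 571 kb from that end, was 3.0 to 6.2 kb wide with summits of 9 to 22. The start listed in the promoter table is a further one, 835 kb from the end, and it lay in no interval.

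Neighbouring members kept separate domains in the intervals as deposited. Tbx2 and Tbx4, on chromosome 11, lie 44.4 kb apart. The gap between their nearest intervals was 1.0 to 23.2 kb without ever closing, with 0 to 2 other intervals in between. In WT MET 2 it was 1.0 kb, so the alternative of merging across 1000 bp joins the domains of this pair there. Tbx3 and Tbx5, on chromosome 5, lie 112 kb apart, with 60.4 to 94.4 kb between their nearest intervals and 3 to 6 other intervals in between. No deposited interval touched 2 members in any library.

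The 4 members without a stable call lay apart from the mark. For Sox15 (chr11:69655037-69656727) the nearest interval was 28.4 to 31.2 kb away, and of its 11 protein-coding neighbours within 50 kb, 8 were called in no library, among them Eif4a1 and Cd68. Atp1b2, Shbg and Sat2 were called in all 8. For Tbx6 (chr7:126781483-126785548) the distance was 26.3 to 27.3 kb, and 5 of 7 neighbours, among them Aldoa and Mapk3, were called in no library. Sox15 overlaps the protein-coding gene Mpdu1, so calls of that pair cannot be told apart.

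Tbx10 and Tbx19 had a single call each. Tbx10 (chr19:3992752-3999512) was covered to 89.5% in WT MET 2 by an interval of 7.8 kb with a summit of 16, and was at 0% in the other 7 libraries. Tbx19 (chr1:165137834-165160773), which activates the pro-opiomelanocortin gene in the pituitary, was covered to 18.3% in RH MET 1 by an interval of 4.2 kb with a summit of 14, and was at 0% in the other 7. Both summits were low for their library, at the 44.5th and 43.4th percentile. In the other libraries the nearest interval was 54.6 to 60.8 kb from Tbx10 and 116 to 119 kb from Tbx19.

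The members' starts could be set beside the CG content of their promoters. The 23 members with an entry had 29 listed starts. The start lay in an interval in all 8 libraries for 20 of them, in 18 genes, and there the observed to expected CG ratio ran from 0.314 to 1.07 with a median of 0.737. The start lay in no interval for 8, in 5 genes, namely Sox5, Sox15, Tbx6, Tbx19 and 4 starts of Sox6, and there the ratio ran from 0.160 to 0.426 with a median of 0.247. The ranges overlapped, through Tbx4 at 0.314 and Tbx19 at 0.426. The single start of Tbx10, in an interval in 1 library, had 0.143. Over all protein-coding promoters the contrast was smaller: the median ratio was 0.671 for the 4097 windows touched by an interval in all 8 libraries and 0.511 for the 14371 touched in none. A ratio of at least 0.6 was found in 58.6% of member promoters and 47.7% of all promoters. Some Sox6 starts belong to a gene that was called, and starts of one gene are not independent, so these are descriptions.

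**Figure D3:**
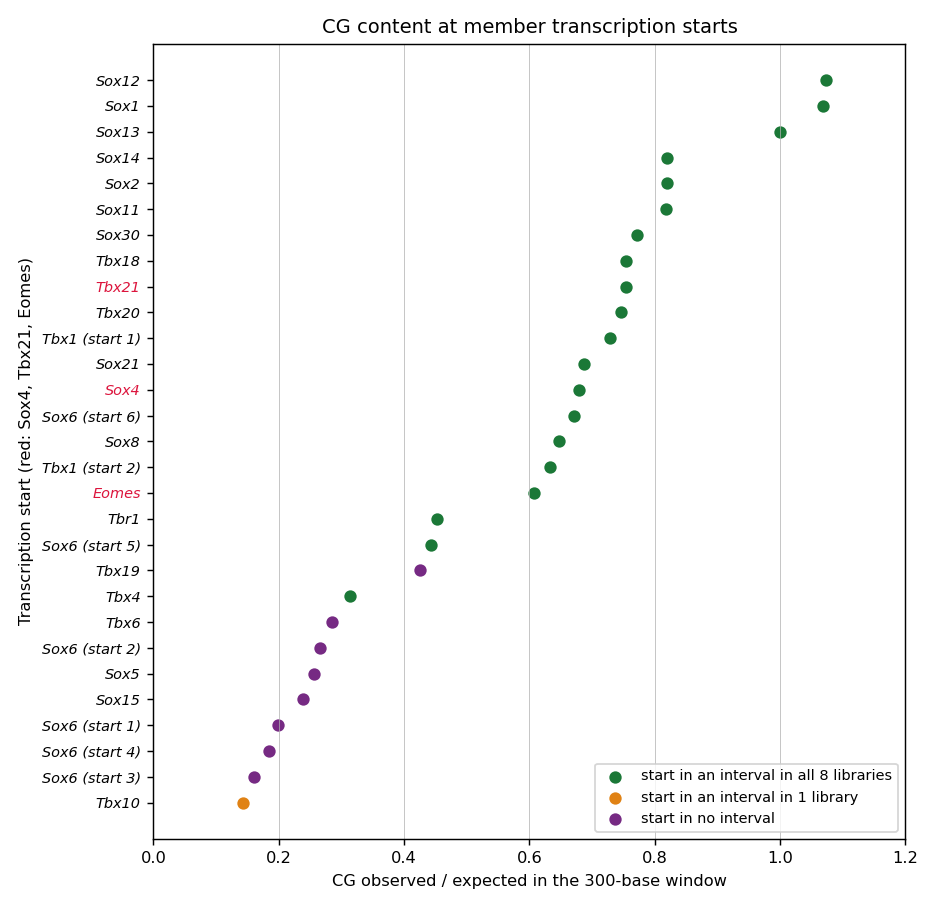
Observed to expected CG ratio of each listed promoter of the members (horizontal axis, no unit), 1 point per start, by whether the start lay in an interval in all 8 libraries, in 1 or in none. The 20 starts in an interval in all 8 libraries have a median of 0.737, and the 8 starts in none have a median of 0.247.

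Of the families' other genes, Sry, Sox3, T, Tbx22 and Mga, 4 of 5 were called in all 8 libraries and 1 was fully covered in all 8. Sox3, a neural SoxB1 gene, was fully covered in each, and T (Brachyury), the mesoderm regulator that founded the T-box family, was at 56.7% in RH VEH 1 and 100% in the other libraries. Tbx22, which acts in palate development, had 26.8% to 54.4%. Mga, a gene with both a T-box and a bHLH domain, had 1.12% to 3.58%. No library had an interval on the Y chromosome, where Sry lies.

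Lists of blood genes were read beside the shares of all protein-coding genes, of which 24.8% were called in all 8 libraries and 60.7% in none. Of 20 blood transcription factors, 9 were called in all 8 libraries, among them Cebpa and Cebpe, and 7 in none, among them Etv6 and Gata1. Of 14 T and NK effector genes, whose regulators include Tbx21 and Eomes, 1 was called in all 8 libraries (S1pr5, a sphingosine-1-phosphate receptor of NK cells) and 10 in none, among them Ccl5 and Fasl. Of 8 lymphoid transcription factors, 7 were called in all 8 libraries, among them Bcl11b and Ebf1, and Foxp3 in none. The share of effector genes without a call, 10 of 14, thus lay near that of all genes.

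The mutant was first set against wild type under vehicle. A member would count as separated if every library of one group, and none of the other, had called it. No member was separated. The calls given above fixed this outcome, since each member was called in every library, in 1 or in none. The same holds for the comparisons that follow, so the shares of all genes are given as background only. Of 7831 genes called in either group, 0.434% were separated with the mark in RH VEH and 2.4% with the mark in WT VEH. For percent covered, limma was fitted on 8598 genes called in any library, and 30 members entered, since Sox15 and Tbx6 were never called. No member passed an adjusted p of 0.05, against 0.0116% of all genes higher and 0.174% lower. At an unadjusted p of 0.05, 1 member was lower and none higher, against 4.25% of genes lower and 0.558% higher. That member was Tbx21, whose cover averaged 58.4% ± 27.8 in RH VEH and 96.0% ± 5.71 in WT VEH (SD, 2 libraries each). The difference was -37.5 percentage points ± 13.5 (SE, limma, adjusted p = 0.949). The groups did not overlap, and the RH VEH libraries themselves lay apart at 38.8% and 78.1%. Without RH VEH 2, with RH VEH 1 alone standing for its group, the difference was -57.1 points for Tbx21 and -26.8 for Sox4. Sox4 was at 100% in every other library, so its value restates the 73.2% of RH VEH 1. RH VEH 1 had the smallest covered total (80.0 Mb) and the lowest cover for 9 of the 11 members with a single lowest library, as for 54.4% of genes, and its part in these values was not tested.

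Mean cover was lower in RH VEH than in WT VEH for 13 of 30 members, higher for 1 and equal for 16, most of which were at 100% in both groups. Of all 8598 genes 56.9% were lower and 24.6% higher, so the direction was not particular to the members. Percent covered cannot exceed 100, which limits what the 14 fully covered members can show.

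Metformin was set against vehicle within each genotype. In the mutant, no member was separated between RH MET and RH VEH, against 2.99% of 7887 genes separated with the mark in RH MET and 0.203% with the mark in RH VEH. No member passed the adjusted limma threshold, against 0.256% of genes higher and 0.0116% lower, and none had an unadjusted p under 0.05, against 2.7% of genes higher and 0.582% lower. Cover was higher in RH MET for 14 of 30 members, lower for 1 and equal for 15, and for all genes it was higher in 50.6% and lower in 31.6%. The smallest p was that of Tbx19, at 9.15% ± 12.9 in RH MET and 0% in RH VEH, which rests on the single interval in RH MET 1. Without RH VEH 2 the Sox4 difference was 26.8 points, and without RH MET 2 that of Tbx19 was 18.3 points. In both cases the remaining library alone stood for its group.

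In wild type, no member was separated between WT MET and WT VEH, against 2.23% of 8236 genes separated with the mark in WT MET and 0.522% with the mark in WT VEH. No member passed the adjusted limma threshold, against 0.268% of genes higher and 0.093% lower. Tbx15, which acts in skeleton and coat pattern, was covered to 30.9% and 30.6% in WT MET, against 25.9% and 25.2% in WT VEH. These groups did not overlap, at +5.27 points ± 1.17 (SE, limma, adjusted p = 0.574). That value rests on weak intervals: with a minimum summit of 15 it was 0.615 points. Tbx21 averaged 59.6% ± 1.63 in WT MET and 96.0% ± 5.71 in WT VEH, at -36.4 points ± 13.5 (SE, limma, adjusted p = 0.929). Both were under an unadjusted p of 0.05, as were 3.41% of genes higher and 1.15% lower. In all, 6 members were higher, 8 lower and 16 equal, and of all genes 52.2% were higher and 31.9% lower. Without WT MET 1 the limma call for Tbx10 appeared at 89.5 points, resting on WT MET 2 alone. This comparison shares the WT VEH libraries with the one of RH VEH against WT VEH, so the 2 Tbx21 differences rest on the same high values.

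**Figure D4:**
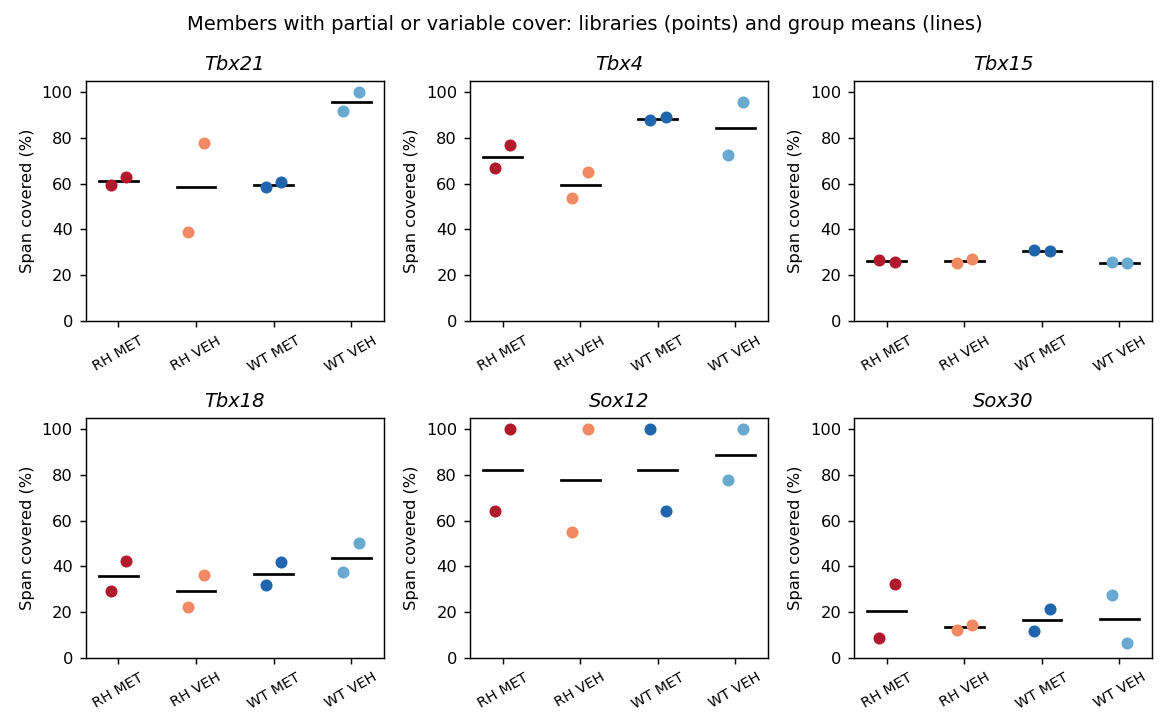
Percent of the span covered (vertical axis, 0 to 100) in each of the 8 libraries by group, for Tbx21, Tbx4, Tbx15, Tbx18, Sox12 and Sox30; points are libraries and lines are means of 2 libraries. Tbx21 stands at 91.9 and 100 percent in WT VEH and between 38.8 and 78.1 percent elsewhere.

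Under metformin, mutant and wild type were also compared. No member was separated between RH MET and WT MET, against 0.921% of 8248 genes separated with the mark in RH MET and 2.21% with the mark in WT MET. No member passed the adjusted limma threshold, against 0.209% of genes higher and 0.337% lower. Tbx15 was covered to 26.7% and 25.7% in RH MET, against the 30.9% and 30.6% in WT MET given above, at -4.56 points ± 1.17 (SE, limma, adjusted p = 0.619). It was the one member under an unadjusted p of 0.05, against 1.01% of genes higher and 4.61% lower, and with a minimum summit of 15 the difference was -1.32 points. Cover was lower in RH MET for 10 of 30 members and higher for 4, and for all genes it was lower in 60.7% and higher in 24.6%. The Tbx10 difference was -89.5 points without WT MET 1, and that of Tbx19 was 18.3 points without RH MET 2. In both cases the remaining library alone stood for its group. The test of whether the metformin difference itself differed between RH and WT called no member either, against 0.279% of genes higher and 0.186% lower at the adjusted threshold. Under an unadjusted p of 0.05 it called 1 member, lower, and 1.77% of genes lower and 2.07% higher. That member was Tbx15 at -5.09 points ± 1.65 (SE, limma, adjusted p = 0.948), or -1.84 with a minimum summit of 15. Without RH VEH 2 this value was 26.8 points for Sox4 and 58.9 for Tbx21. It was 18.3 for Tbx19 without RH MET 2 and -89.5 for Tbx10 without WT MET 1. Each time the remaining library alone stood for its group.

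Pooling 4 libraries a side allowed an exact two-sided permutation test over 70 assignments, whose smallest possible p is 0.0286. No member reached an unadjusted p under 0.05 by genotype, where 0.163% of genes were higher and 3.08% lower, or by treatment, where 1.01% were higher and 0.093% lower. No gene passed after adjustment. With a smallest possible p of 0.0286, a pass would need most of the tested genes to reach it. That count therefore decides nothing about the members. The lowest member p by genotype was that of Tbx4, required for hindlimb and lung. It was covered to 66.7%, 76.8%, 53.9% and 65.4% in the RH libraries, in the order RH MET 1, RH MET 2, RH VEH 1 and RH VEH 2. In WT MET 1, WT MET 2, WT VEH 1 and WT VEH 2 it was 87.9%, 89.2%, 72.8% and 96.0%. The groups overlapped through RH MET 2 and WT VEH 1 (RH 65.7% ± 9.36, WT 86.5% ± 9.79, SD, n = 4 each, exact permutation p = 0.0571, adjusted p = 0.939). Within treatments, Tbx4 averaged 71.8% ± 7.14 in RH MET and 88.6% ± 0.951 in WT MET, and 59.6% ± 8.09 in RH VEH and 84.4% ± 16.4 in WT VEH.

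Other partly covered members also varied. Sox12 was covered to 64.2% and 100% in RH MET, 55.1% and 100% in RH VEH, 100% and 64.2% in WT MET, and 77.7% and 100% in WT VEH, so that each group held at least one low and one full library. Sox11 had 58.2% and 67.7% in RH MET, 51.1% and 58.2% in RH VEH, 67.7% and 79.5% in WT MET, and 72.4% and 60.6% in WT VEH. Its RH VEH libraries lay below those of WT MET and of WT VEH without overlap, though for WT VEH only by 58.2% against 60.6%. Against WT VEH the difference was -11.8 points ± 6.92 (SE, limma, adjusted p = 0.949). Of all 8598 genes 56.9% were lower in RH VEH than in WT VEH. RH VEH 1 had the lowest cover for 54.4% of genes with a single lowest library. The share of all genes without overlap was not counted. Tbx18, which acts in the epicardium, ranged from 22.0% to 50.1%, and Tbx20, a heart regulator, from 8.79% to 22.3%. Sox7 ranged from 83.9% to 100% and Tbx5 from 72.0% to 84.4%.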

How the data were processed

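H3K27me3 ChIP-seq was measured in 8 LK libraries, and the input library has no track and was not used. Per the submitters' processing notes, bcl2fastq 2.20 and BWA 0.7.12 were used on mm10. Which program called the intervals, at what threshold and with what scaling to depth is not given in the sources used here. The deposited values are the authors' intervals and 1 summit score per interval, whose unit the file headers do not state. All 118629 summits lay inside their interval, and starts were counted from 0 on a grid of 200 bp. No column of samples was left unmapped (0).

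Gene spans and promoters came from RefSeq tables of GRCm38.p6, the assembly of mm10. Overlap, cover, width and percentile were computed in Python 3.11.15 (pandas 2.3.3, scipy 1.17.1). Cover was tested with limma 3.58.1 (R 4.3.3; trend and robust; 4 group means; Benjamini-Hochberg adjustment over 8598 genes called in any library). That filter keeps genes through their higher group. Exact permutation tests used 4 against 4 libraries. The limma fit was tested on simulated data. The design took replicates as unpaired: replicate differences of the groups correlated from -0.0348 to 0.186 and so did not pair the numbers.

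Members and gene lists were chosen with earlier results of these data known. Named in full were Sox4, Tbx21, Eomes, members not called in all 8 libraries, and those extreme in cover, range, width, percentile or p. The others are given by subfamily. Lists are named by at most 4 genes, by number of libraries called. Alternatives were a minimum summit of 15, an equal 11620 intervals per library, merging across 1000 bp, spans extended by 2500 bp, a call at 50% cover or at the promoter window, other limma settings, a replicate block and leaving out each library.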

Additional observations from a re-analysis of the deposited data

Results flagged for a closer look

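Percent covered was screened for single libraries far from the other 3 of the same genotype or treatment. Of 128 such sets of 4 libraries, 58 held values that differed and could be marked, and 8 of these were. For values with normal scatter chance marks about 1 in 20 sets, a rate that sets with several libraries at 0% or 100% need not follow. Sox4 stood at 73.2% in RH VEH 1, the lowest both among the RH and among the VEH libraries, where the others were at 100%. Tbx5 stood at 72.0% in RH VEH 1, below the 83.3% to 84.4% of the other VEH libraries. Sox6 was highest at 4.77% in RH MET 1, against 3.05% to 3.26% in the other RH libraries. Tbx10 was at 89.5% in WT MET 2 and at 0% in the other WT and the other MET libraries. Tbx19 was at 18.3% in RH MET 1 and at 0% in the other RH and the other MET libraries. RH VEH 1 also had the lowest summit for 28 of 28 marked members, and its part in the Sox4 and Tbx5 values was not tested.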

How the results depend on the processing

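The count of 28 members called in all 8 libraries was 18 when the promoter window, for which 9 members have no entry, had to be overlapped. It was 20 for a call at 50% of the span and 27 with a minimum summit of 15 (Sox12 was lost in RH VEH 1). It was 28 under the other alternatives and without any 1 library. The share of 24.8% of all protein-coding genes belongs to the main call of at least 1 bp. For the promoter window, the 18 were out of 23 members with an entry. Among all protein-coding genes with an entry, 3432 of 17492 had a window touched in all 8 libraries. For the other alternatives no share of all genes is given here.

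Leaving out each library in turn gave 0 separated members for RH VEH against WT VEH. It gave 0 to 1 for RH MET against RH VEH, WT MET against WT VEH and RH MET against WT MET. These came through Tbx19 without RH MET 2 and Tbx10 without WT MET 1. Both follow from the single call of each gene, once the replicate without a call was left out. No share of all genes separated without 1 library is given here, so these counts are no result about the members. Members called by limma then numbered 0 to 2 for RH VEH against WT VEH and for the difference between genotypes in the metformin effect (Sox4 and Tbx21, both without RH VEH 2), and 0 to 1 for the other 3 contrasts. A group left with 1 library was assumed to vary like the others, so these limma counts decide nothing about the members.

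With the replicate block, 0 members passed in any of the 5 contrasts, and the smallest adjusted p was 0.36. Same-numbered libraries did not deviate together (correlations of -0.0348 to 0.186), so they share only a number.

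Counts of all genes called by limma moved more: 16 for RH VEH against WT VEH (1 to 31 under alternatives, 11 to 234 without 1 library), 23 for RH MET against RH VEH (10 to 45, 25 to 221), 31 for WT MET against WT VEH (16 to 55, 34 to 315), 47 for RH MET against WT MET (30 to 67, 59 to 344) and 40 for the interaction (17 to 58, 161 to 299). limma on all genes without the filter could not be fitted, since most genes had no variance. Direction was checked only for the member with the smallest unadjusted limma p in each contrast, and none reversed under the alternatives run. Extending spans by 2500 bp moved the mean cover of 8 of 32 members by over 1 SD. The widths without WT MET 2 were an alternative chosen after seeing the data. Read depth is unknown, which limits any reading of height or width between libraries.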
